A study of Homo sapiens with 6 samples.

Results

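The genes described here are 8 genes whose loss or mutation recurs in pancreatic ductal adenocarcinoma (PDAC): CDKN2A, CDKN2B, MTAP, SMAD4, TGFBR2, ARID1A, KDM6A and RNF43. They were picked by name from the 62703 genes listed in the expression table. The table holds 6 RNA-seq libraries labelled as PANC-1, an established human PDAC cell line. In 3 libraries, labelled DKK1-SE+/+, the cells carry an intact super-enhancer of DKK1, a gene for a secreted inhibitor of Wnt signaling. In the other 3, labelled DKK1-SE-/-, Cas9 had removed the core element of that super-enhancer on both alleles. The study's text describes the DKK1-SE-/- cells as 1 clone. The labels call the libraries biological replicates, and the tests measure only the spread between them, not the spread between clones. The total expected count was between 16475810 and 21822314 in the DKK1-SE+/+ libraries and between 17359835 and 20098086 in the DKK1-SE-/- libraries. Values of 3 libraries are always given in the order of replicates 1, 2 and 3.

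PDAC progresses as brakes on growth are lost. CDKN2A encodes p16 and p14ARF, which hold back the cyclin D kinases and MDM2, while SMAD4 and TGFBR2 carry the growth-arresting arm of TGF-beta signaling. ARID1A and KDM6A belong to chromatin complexes, and RNF43 removes Wnt receptors from the cell surface. CDKN2A, its neighbour CDKN2B and MTAP, a methionine salvage enzyme, lie side by side on the short arm of chromosome 9 and are often deleted together.

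The deleted element should be visible in DKK1 itself, which was read before the driver genes. The TPM value (a transcript level corrected for transcript length and library size) of DKK1 was 229.2, 245.8 and 198.5 in the DKK1-SE+/+ libraries and 66.8, 79.8 and 82.7 in the DKK1-SE-/- libraries. The groups did not overlap, and DKK1 was lower in the libraries labelled DKK1-SE-/-. A different point goes against what is known of the line. PANC-1 is known to carry a homozygous deletion of CDKN2A, yet each of the 3 libraries labelled DKK1-SE-/- held CDKN2A counts, as described in the next paragraphs. The names DKK1-SE+/+ and DKK1-SE-/- stand for the labels of the libraries throughout. The source of the CDKN2A transcripts was not tested, and neither was whether the libraries labelled DKK1-SE-/- hold PANC-1 cells alone.

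Most markers of other pancreatic and stromal cells were near 0 in both genotypes. The 8 markers chosen for the line, epithelial genes and the mesenchymal filament VIM, summed to a TPM between 5411 and 6517 in all libraries. VIM made up most of the sum over the 6 libraries (a mean of 3422), followed by the epithelial keratins KRT8 and KRT18. EPCAM, an epithelial surface protein, averaged a TPM of only 4.17 in DKK1-SE+/+ and 2.58 in DKK1-SE-/- libraries, and CDH1 was lower still. Of these 8 markers 6 were called different between the genotypes (75%, against 39.3% of all tested genes), KRT8, KRT18 and KRT19 higher and EPCAM, SOX9 and VIM lower in DKK1-SE-/-. With the replicate number as a block, EPCAM and SOX9 were not called, and DESeq2 did not call EPCAM. The 6 acinar markers summed to at most 0.66, with CEL the most abundant and CPB1 and AMY2A at 0 in every library. The 5 islet markers summed to at most 0.33, GCG leading and INS, SST and PPY at 0. The 6 fibroblast markers summed to at most 1.22, PDGFRB leading and COL1A2 and FAP at 0. The 4 endothelial markers summed to 2.12 to 2.57 in DKK1-SE+/+ and 0.44 to 0.58 in DKK1-SE-/- libraries, most of it KDR, which carcinoma lines can also express. Of the leukocyte markers, CD68, a lysosomal protein of many cell types, had a TPM of 43.2, 40.9 and 46.5 in the DKK1-SE+/+ and 67.9, 64.8 and 67.1 in the DKK1-SE-/- libraries, while PTPRC and CD3E had a TPM of 0 in every DKK1-SE+/+ library and of at most 0.04 and 0.06 in a DKK1-SE-/- library.

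The comparison of the genotypes asked which of the 8 genes differed between DKK1-SE-/- and DKK1-SE+/+ cells. CDKN2A was the only driver gene called, absent from the DKK1-SE+/+ libraries and present in all DKK1-SE-/- libraries. SMAD4, TGFBR2, ARID1A, KDM6A and MTAP had counts in every library and were not called. The MTAP counts are uncertain, as described below. CDKN2B and RNF43 had too few counts to be tested. A gene was called when its Benjamini-Hochberg adjusted p-value in edgeR's quasi-likelihood F test, taken over all 15179 tested genes, was under 0.05. By this rule 1 of the 6 tested driver genes was called, against 39.3% of all tested genes. The 1 call was in the direction of higher expression in DKK1-SE-/-, where 19.8% of all tested genes were called, and 0 were called lower, where 19.5% were (0 also at an unadjusted p under 0.05 in edgeR, and 0 called lower by DESeq2). By another rule, p under 0.05 before adjustment and a log2 fold change past 1.2 either way, CDKN2A was again the only tested driver gene past them, against 8.66% of all tested genes. CDKN2A passed the filter on low counts only through the DKK1-SE-/- libraries, so it had to differ, and its call adds nothing to a count over the driver genes.

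**Figure D1:**
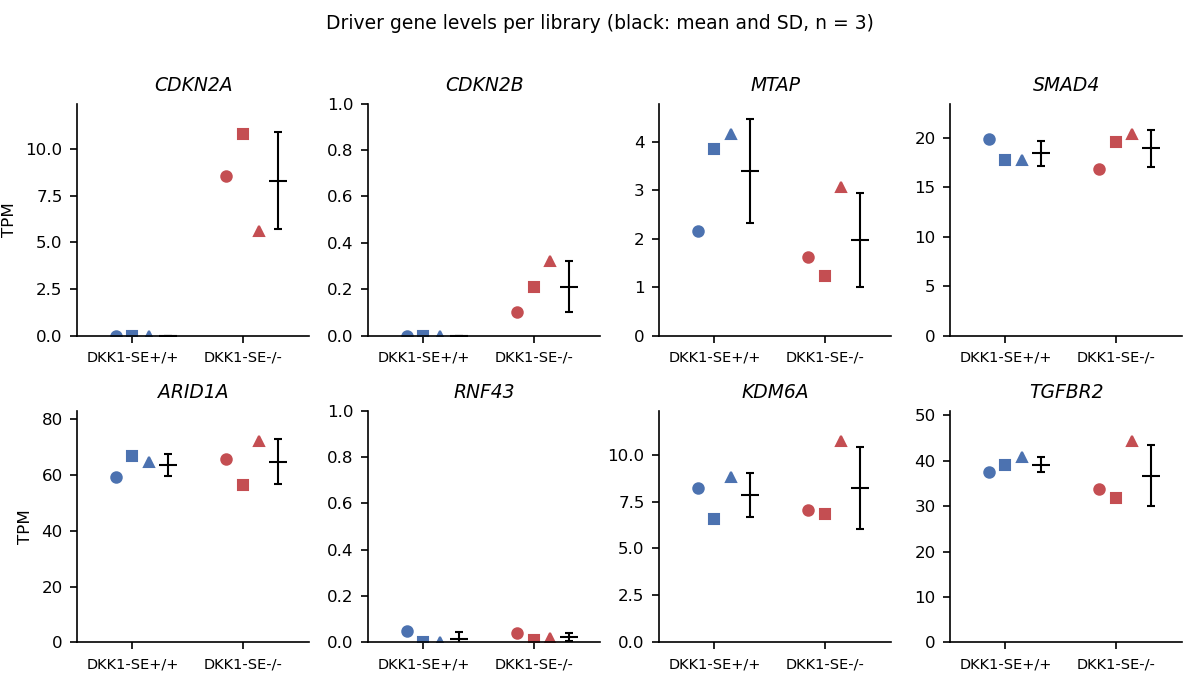
TPM of the 8 driver genes (vertical axes, each gene on its own scale from 0) in the 3 DKK1-SE+/+ libraries (blue) and the 3 DKK1-SE-/- libraries (red). Circles, squares and triangles are replicates 1, 2 and 3, and the black marks are the mean and SD of each group. CDKN2A lies at 0 in every DKK1-SE+/+ library and between 5.58 and 10.8 in the DKK1-SE-/- libraries, while the values of SMAD4, ARID1A, KDM6A and TGFBR2 overlap between the genotypes.

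CDKN2A (ENSG00000147889) maps to the minus strand of chromosome 9 from 21967752 to 21995301 on hg38. All DKK1-SE+/+ libraries had 0 expected counts of it, and the DKK1-SE-/- libraries had 91, 132 and 54. As TPM, the DKK1-SE-/- values were 8.52, 10.8 and 5.58, a mean of 8.30 ± 2.62 (SD, n = 3). Every DKK1-SE-/- library was thus above every DKK1-SE+/+ library, and replicate 3 was the lowest of those with counts. A count of 0 in the DKK1-SE+/+ libraries allows up to 3 counts each, or 0.137, 0.182 and 0.16 CPM (counts scaled to library size) in replicates 1, 2 and 3, a limit that covers counting error only. Against the mean of these limits, 0.16 CPM, the mean CPM of CDKN2A was at least 31.0-fold higher in DKK1-SE-/-. In bulk RNA, a few cells with many CDKN2A transcripts and many cells with few cannot be told apart. The counts are given per gene, so transcripts for p16 and for p14ARF cannot be told apart either, and these data hold no protein values. The RNA on the opposite strand was also read. CDKN2B-AS1, a long non-coding RNA that overlaps CDKN2A, had 5.86, 0 and 0 counts in DKK1-SE+/+ and 5, 7.04 and 8 counts in the DKK1-SE-/- libraries, too few to be tested.

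CDKN2B (ENSG00000147883) encodes p15, a kinase inhibitor induced by TGF-beta, and maps to the minus strand of chromosome 9 from 22002903 to 22009305. It had 0 counts in each DKK1-SE+/+ library and 5, 3 and 7 counts in the DKK1-SE-/- libraries. Like CDKN2A it was counted in the DKK1-SE-/- libraries alone, but at a far lower level and with replicate 3 the highest, a TPM of 0.10, 0.21 and 0.32 in the DKK1-SE-/- libraries. CDKN2B was not tested because no library reached 10 counts. Only the fit without the filter on low counts gave a value for it, and there, as for CDKN2A, only the DKK1-SE-/- libraries brought it in, so nothing is read from that call. CDKN2A and CDKN2B are paralogs, and reads from their matching stretch can be assigned to either gene. Of the distinct 50-base stretches of the CDKN2A transcripts, 0.755% also occur in CDKN2B, and of those of CDKN2B, 0.776% occur in CDKN2A. How the reads were assigned was not examined.

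MTAP (ENSG00000099810) encodes the enzyme that returns methylthioadenosine, a by-product of polyamine synthesis, to methionine. It maps to the plus strand of chromosome 9 from 21802636 to 21937651, and its start lies at -165 kb from that of CDKN2A. The MTAP counts were 37.5, 47.1 and 57.4 in the DKK1-SE+/+ libraries and 59.7, 49.6 and 68.1 in the DKK1-SE-/- libraries, so MTAP transcripts were counted in every library. In CPM, the groups overlapped (1.72, 2.86 and 3.05 against 3.44, 2.47 and 3.82), and the log2 fold change was 0.44 (standard error 0.29, edgeR, Benjamini-Hochberg adjusted p = 0.248). In a fit with an offset for GC content, described below, it was 0.81 and MTAP was called (edgeR, Benjamini-Hochberg adjusted p = 0.0489). The TPM values ran the other way, 2.17, 3.86 and 4.17 in DKK1-SE+/+ and 1.62, 1.24 and 3.07 in DKK1-SE-/-. The groups overlapped on this scale as well, and limma-trend on log2(TPM + 1) gave a log2 fold change of -0.58 without a call.

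The direction of MTAP therefore rests on the scale, and the difference lies in the transcript length that turns counts into TPM. The length implied by count and TPM, calibrated on 402 genes with 1 annotated transcript, was 1232, 1201 and 1189 bases in the DKK1-SE+/+ libraries and 2789, 2558 and 1821 bases in the DKK1-SE-/- libraries. These lengths did not overlap, so the authors' quantification placed the MTAP counts of the DKK1-SE-/- libraries on longer transcripts. For CDKN2A, the same calculation gave 971, 945 and 925 bases in the DKK1-SE-/- libraries. The MTAP counts are uncertain for a further reason. The long non-coding gene ENSG00000264545, chosen after its values were seen, begins at the same base on the same strand and spans MTAP, CDKN2A and CDKN2B. It had 382.6, 228.9 and 288.7 counts in the DKK1-SE+/+ libraries and 171.3, 238.4 and 162.9 in the DKK1-SE-/- libraries, more than MTAP in every library. It was lower in DKK1-SE-/- with a log2 fold change of -0.53 (edgeR, Benjamini-Hochberg adjusted p = 0.0194). How reads were divided between MTAP and this gene is not given in the sources used here.

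Some genes on either side of CDKN2A in chromosome band 9p21 were expressed in both genotypes. Of 87 genes listed within 2.5 Mb of the start of CDKN2A, 56 had 0 counts in every library and 25 had at least 3 counts in some library. FOCAD, 1 of the 12 band 9p21 genes on the list, averaged a TPM of 11.0 ± 1.73 in DKK1-SE+/+ and 9.55 ± 0.582 in DKK1-SE-/- libraries (SD, n = 3). KLHL9, a ubiquitin ligase adaptor whose start lies at -638 kb from that of CDKN2A, had a log2 fold change of -0.05, and DMRTA1, a transcription factor at 479 kb, of -0.65, and neither was called. Of the 6 list genes tested, MIR31HG, the host gene of the microRNA miR-31, was the only one called (16.7%, against 39.3% of all tested genes). Its TPM was 9.21, 9.03 and 9.58 in DKK1-SE+/+ and 10.7, 11.0 and 11.3 in the DKK1-SE-/- libraries. The groups did not overlap, and the log2 fold change was 0.39 (standard error 0.13, edgeR, Benjamini-Hochberg adjusted p = 0.0326), but the call was lost without each library in turn except DKK1-SE-/- replicate 3. The call was also lost with the replicate block, with library size alone, without the filter on low counts and in the limma-trend fits on TPM. The median log2 fold change of the 6 genes was -0.28, against 0.03 over all tested genes. CDKN2A-DT, a non-coding gene beside CDKN2A, had 0 counts in every library. ELAVL2, an RNA-binding protein of neurons, had 0 counts in each DKK1-SE+/+ library and 5, 2 and 11 counts in the DKK1-SE-/- libraries.

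The genes that p16 and p14ARF act on were expressed in both genotypes. Of 20 genes of the cyclin D, CDK4/6, RB and CDK inhibitor list, all 20 were tested, 4 were higher and 5 lower in DKK1-SE-/- (45% called, near the 39.3% of all tested genes), and the median log2 fold change was -0.02. CDK4 averaged a TPM of 142.0 ± 8.87 in DKK1-SE+/+ and 134.7 ± 6.54 in DKK1-SE-/- libraries (SD, n = 3) and was not called. CDK6, the other kinase that p16 inhibits, fell from 16.2, 16.1 and 15.7 to 6.42, 8.06 and 11.6, a log2 fold change of -0.74 (standard error 0.15, edgeR, Benjamini-Hochberg adjusted p = 0.00266). Replicate 1 was the lowest DKK1-SE-/- library for CDK6, and the groups did not overlap.

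Of the D cyclins, CCND1 fell from a mean TPM of 193.5 ± 16.1 to 140.4 ± 9.72, and CCND3 rose from 31.7 ± 1.28 to 40.7 ± 4.57 (SD, n = 3). CCND2 was called higher at a very low level, with counts of 4.26, 6.33 and 4.54 in DKK1-SE+/+ and 20.2, 30.4 and 52.8 in the DKK1-SE-/- libraries. It reached 10 counts in the DKK1-SE-/- libraries alone, so the filter on low counts set the direction of its log2 fold change of 2.85. CDKN1B, the kinase inhibitor p27, rose with a log2 fold change of 0.53. RB1, the protein that these kinases inactivate, was called lower, with a log2 fold change of -0.51, from 14.1, 16.3 and 12.8 to 6.94, 8.91 and 14.1 TPM, and the groups overlapped through DKK1-SE-/- replicate 3. MDM2, the p53 ligase that p14ARF restrains, was called lower (-0.44) and E2F1, a transcription factor held by RB1, higher (0.39), and for both the TPM values of the groups overlapped.

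The base composition of the transcripts moved with these differences. Across 15167 tested genes, which are not independent replicates, the log2 fold change rose with GC content (Spearman's rho = 0.40). The GC content of a gene was that of its longest annotated transcript. Relative to the DKK1-SE+/+ mean, rho was 0.53, 0.40 and 0.14 in the DKK1-SE-/- libraries, and -0.20, -0.19 and 0.36 in the DKK1-SE+/+ libraries. RB1, MDM2 and CDK6 have a GC content of 37.1%, 39.5% and 39.7%, and the third of genes with the lowest GC content had a median log2 fold change of -0.29. In a further fit each library had its own GC-content offset. The offset was taken from these same libraries, so it had to remove the trend, and rho was -0.01. Such an offset also removes any true difference in expression that runs with GC content. In that fit the log2 fold change was -0.42 for CDK6, still called, and -0.03 for RB1, -0.11 for MDM2 and 0.08 for E2F1, no longer called. The list then held 4 genes higher and 5 lower, of which 3 and 3 had also been called without the offset. For the band 9p21 list the median was -0.04 with the offset, and MIR31HG, still the only gene called, had 0.89. The part of base composition in the other results was not tested beyond this fit.

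Of 23 listed genes around MTAP in methionine and polyamine metabolism 22 were tested, 4 were higher and 5 lower in DKK1-SE-/- (40.9% called, near the 39.3% of all tested genes), and the median log2 fold change was 0.09. With the offset for GC content 4 were higher and 5 lower, of which 3 and 4 had also been called without it, and the median was 0.07. MAT2A, which makes S-adenosylmethionine from methionine, fell from 343.0, 298.3 and 287.7 to 127.6, 159.6 and 173.3 TPM. No DKK1-SE-/- library reached the lowest DKK1-SE+/+ value, and the log2 fold change was -0.81 (standard error 0.12, edgeR, Benjamini-Hochberg adjusted p = 0.000406). SAT1, a polyamine acetyltransferase, and AMD1, which supplies the aminopropyl groups of polyamines, were lower with log2 fold changes of -0.76 and -0.61. AHCY, which breaks down S-adenosylhomocysteine, and ADI1, an enzyme of the salvage pathway beyond MTAP, were higher with 0.50 and 0.47. With the GC-content offset AMD1 was -0.26 and AHCY 0.25, while SAT1 was -0.62 and ADI1 0.60, all still called. AMD1 and AHCY were not called with that offset and a replicate block. IL4I1, a secreted amino acid oxidase, was higher with a log2 fold change of 1.49 at a mean TPM of 1.11 or less in either group. Its counts were 16, 6 and 6 in DKK1-SE+/+ and 22, 29.2 and 21.4 in DKK1-SE-/- libraries. It thus passed the filter on low counts through the DKK1-SE-/- libraries. PRMT5, the methyltransferase that methylthioadenosine inhibits, averaged a TPM of 118.3 ± 26.1 in DKK1-SE+/+ and 123.8 ± 11.4 in DKK1-SE-/- libraries (SD, n = 3). On the counts its log2 fold change was 0.28 without a call, and it was 0.35 and called without DKK1-SE-/- replicate 3.

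TGFBR2 (ENSG00000163513), the receptor that binds TGF-beta and phosphorylates its partner TGFBR1, maps to the plus strand of chromosome 3 from 30606601 to 30694142. Measured as TPM, TGFBR2 stood at 37.4, 39.1 and 40.8 in the DKK1-SE+/+ libraries and 33.8, 31.9 and 44.4 in the DKK1-SE-/- libraries. The DKK1-SE-/- libraries lay on both sides of the DKK1-SE+/+ libraries, and replicate 3 was the highest of all. On the counts, the log2 fold change was 0.03 (standard error 0.10, edgeR, Benjamini-Hochberg adjusted p = 0.856). SMAD4 (ENSG00000141646), the shared partner of the receptor-activated SMAD proteins, maps to the plus strand of chromosome 18 from 51028528 to 51085045. The SMAD4 level was a TPM of 19.9, 17.7 and 17.7 in DKK1-SE+/+ and 16.8, 19.5 and 20.4 in the DKK1-SE-/- libraries. These values overlapped, and the log2 fold change was -0.11 (standard error 0.11, edgeR, Benjamini-Hochberg adjusted p = 0.434). The GC-content offset turned the sign of SMAD4, to 0.12, again without a call.

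Some of the genes that work with TGFBR2 and SMAD4 were called. Of 23 listed TGF-beta ligands, receptors, SMAD proteins and targets, all were tested, 6 were higher and 9 lower in DKK1-SE-/- (65.2% called, against 39.3% of all tested genes, a difference that was not tested), and the median log2 fold change was -0.10. Under the GC-content offset, 3 were higher and 9 lower, with a median of -0.07. TGFBR1, the receptor partner of TGFBR2, fell from 10.2, 11.0 and 9.99 to 4.15, 4.61 and 5.86 TPM. The groups were well apart, and the log2 fold change was -1.09 (standard error 0.12, edgeR, Benjamini-Hochberg adjusted p = 6.69e-05). LTBP2 and LTBP1, proteins of the latent TGF-beta binding family in the matrix, fell most. LTBP2 went from 46.5, 48.2 and 48.3 to 10.4, 9.31 and 11.4 TPM (log2 fold change -1.96), and LTBP1 from 31.8, 31.7 and 33.7 to 8.32, 8.21 and 10.4 TPM (-1.76). SMAD6, an inhibitory SMAD protein, was lower with -1.45.

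SMAD2 and SMAD3, which carry the receptor signal to SMAD4, had log2 fold changes of -0.01 and 0.28, and SMAD3 was called. Its mean TPM was 109.4 ± 7.64 in DKK1-SE+/+ and 131.8 ± 11.6 in DKK1-SE-/- libraries (SD, n = 3). SMAD2 was not called, but with the GC-content offset it was, at 0.28. The ligand TGFB1 rose with 0.57 and SMURF1, a ubiquitin ligase for SMAD proteins and the receptor, with 0.35. TGFBR3, a co-receptor, was higher with 2.18 at 21, 5 and 6 counts against 19, 49 and 65 counts. Both its counts and its TPM values overlapped. TGFBR3 passed the filter on low counts through the DKK1-SE-/- libraries. Its log2 fold change was 2.93 without DKK1-SE+/+ replicate 1 and 1.76 without DKK1-SE-/- replicate 3. SMAD3, TGFB1 and SMURF1 were no longer called with the GC-content offset, at 0.16, 0.22 and 0.17.

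ARID1A (ENSG00000117713), the DNA-binding subunit of the BAF form of the SWI/SNF remodelling complex, maps to the plus strand of chromosome 1 from 26693236 to 26782104. It was the most abundant of the 8 driver genes, with a TPM of 59.3, 66.9 and 64.8 in DKK1-SE+/+ and 65.7, 56.5 and 72.3 in the DKK1-SE-/- libraries. The groups overlapped, with the lowest and the highest library both in DKK1-SE-/-. The log2 fold change was 0.17 (standard error 0.11, edgeR, Benjamini-Hochberg adjusted p = 0.251), and -0.08 with the GC-content offset.

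Of 26 other SWI/SNF subunits 25 were tested, 7 were higher and 7 lower in DKK1-SE-/- (56% called, against 39.3% of all tested genes), and the median log2 fold change was 0.14. The fit with the GC-content offset called 7 higher and 7 lower, of which 5 and 6 had also been called without it, and the median was 0.06. ARID1B, the subunit that replaces ARID1A in some complexes, fell from 33.9, 35.1 and 35.1 to 18.4, 19.3 and 24.4 TPM. The groups did not overlap, and the log2 fold change was -0.57 (standard error 0.11, edgeR, Benjamini-Hochberg adjusted p = 0.00219). PBRM1, PHF10 and ARID2, subunits of the PBAF form, were lower with -0.77, -0.67 and -0.66, and PHF10 was no longer called with the GC-content offset. DPF1 rose from a mean TPM of 7.40 ± 0.625 to 22.1 ± 2.42 (SD, n = 3), which is 1.64 as log2 fold change, and SMARCD3 rose with 0.91. Both are subunits that occur in tissue-specific forms of the complex. DPF3 was called higher on the counts (0.96), while its mean TPM was 0.953 in DKK1-SE+/+ and 0.867 in DKK1-SE-/- libraries, so its direction rests on the scale. The ATPase SMARCA4 was called higher with 0.43 and was not called with the GC-content offset, at 0.14.

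KDM6A (ENSG00000147050), a demethylase that removes the repressive methyl marks of histone H3 lysine 27, maps to the plus strand of chromosome X from 44873188 to 45112779. The KDM6A level was a TPM of 8.20, 6.56 and 8.83 in DKK1-SE+/+ and 7.03, 6.85 and 10.7 in the DKK1-SE-/- libraries. The groups overlapped, and DKK1-SE-/- replicate 3 was the highest library. The log2 fold change was 0.26 (standard error 0.14, edgeR, Benjamini-Hochberg adjusted p = 0.178). KDM6A has the lowest GC content of the 8 genes, 36.4%, and with the GC-content offset it was called, with a log2 fold change of 0.73 (edgeR, Benjamini-Hochberg adjusted p = 0.00152, and 0.000569 to 0.913 over all alternatives). MTAP, with a GC content of 39.1%, was also called in that fit, with 0.81 (edgeR, Benjamini-Hochberg adjusted p = 0.0489, and 0.0489 to 0.695 over all alternatives). This GC content is that of the longest annotated transcript, and whether the MTAP counts came from that transcript was not tested. That fit thus called 3 driver genes, CDKN2A among them, and 6220 of all 15179 tested genes.

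Of 20 genes of the complexes that work with or against KDM6A, all were tested, 3 were higher and 5 lower (40% called, near the 39.3% of all tested genes), and the median log2 fold change was 0.02. With the GC-content offset, 4 were higher and 3 lower, with a median of 0.04. ASH2L, a core subunit of the histone H3 lysine 4 methyltransferases, fell from 26.6, 30.1 and 30.4 to 13.5, 10.6 and 13.3 TPM. The groups were apart in every library, and the log2 fold change was -1.21 (standard error 0.11, edgeR, Benjamini-Hochberg adjusted p = 1.78e-05). KDM6B, the close relative of KDM6A, was higher with 0.94, although its TPM values overlapped (13.5, 10.5 and 19.8 against 24.7, 27.5 and 11.8). NCOA6, a subunit shared with the KDM6A complex, and EZH1, a methyltransferase that writes the marks KDM6A removes, were higher with 0.61 and 0.56, and the TPM values of EZH1 overlapped. EZH2, the main enzyme for those marks, had -0.03 and was not called, while its partner SUZ12 was lower with -0.77. DPY30 was lower with -0.45 and was not called with the GC-content offset, at -0.13. SUZ12 was still called with that offset, at -0.40.

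RNF43 (ENSG00000108375), a ubiquitin ligase that clears Frizzled receptors for Wnt, maps to the minus strand of chromosome 17 from 58353676 to 58417595. It had 3.70, 0 and 0 counts in DKK1-SE+/+ and 2, 1 and 1 counts in the DKK1-SE-/- libraries. No library held more than 3.70 counts, close to the 3 that a count of 0 allows, so RNF43 was not tested and a difference was not detectable at this depth. Of 23 genes of the R-spondin, LGR, Frizzled and Wnt target list 15 were tested, 3 were higher and 6 lower (60% called, against 39.3% of all tested genes), and the median log2 fold change was -0.34. With the GC-content offset, 4 were higher and 7 lower, with a median of -0.45. ZNRF3, the ligase most like RNF43, was expressed, and fell from 5.17, 5.65 and 5.37 to 4.44, 3.07 and 4.17 TPM. The groups did not overlap, and the log2 fold change was -0.58 (standard error 0.13, edgeR, Benjamini-Hochberg adjusted p = 0.00552). LGR4, a receptor for R-spondins, rose from 9.91, 10.9 and 10.4 to 14.3, 17.5 and 22.0 TPM, a log2 fold change of 0.87.

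Of the Frizzled receptors, which RNF43 and ZNRF3 act on, 7 were tested, 4 were lower and 1 higher, where 19.5% and 19.8% of all tested genes were, and the difference from those shares was not tested. FZD6 fell from 18.0, 19.0 and 17.2 to 3.75, 3.78 and 5.85 TPM, a log2 fold change of -1.98 (standard error 0.16, edgeR, Benjamini-Hochberg adjusted p = 7.11e-06), and FZD7 was lower with -1.70. FZD5 and FZD8, named after their values were seen, were lower with -0.97 each. FZD2 was higher with 1.22, from a mean TPM of 2.42 ± 0.422 to 5.00 ± 0.938 (SD, n = 3). Of the Wnt target genes, AXIN2 was lower with -1.64, at 74, 66 and 70 counts against 22.0, 20 and 20 counts, and LEF1 was higher with 1.64, at 25, 10 and 20 counts against 43, 52 and 61 counts, although its TPM values overlapped. AXIN2 and LEF1 thus moved in opposite directions, both at low levels.

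Of 24 other genes recurrently mutated in PDAC, 22 were tested, 4 were higher and 8 lower (54.5% called, against 39.3% of all tested genes), and the median log2 fold change was -0.17. With the GC-content offset, 3 were higher and 8 lower, with a median of -0.09. Of the genes called without it, TGFBR1, SMAD3, ARID1B, ARID2, PBRM1 and SMARCA4 were also counted on lists above, so this share is not a separate result. SLIT2, a secreted guidance cue, had 0 counts in each DKK1-SE+/+ library and 126, 147 and 143 counts in the DKK1-SE-/- libraries. Like CDKN2A it passed the filter on low counts through the DKK1-SE-/- libraries alone, so its direction among the 4 was set. Its mean CPM was at least 47.2-fold higher in DKK1-SE-/-, against the mean limit of the DKK1-SE+/+ libraries. With SLIT2 set to that bound the list median stayed -0.17. ROBO1, a receptor for SLIT2, fell from 36.7, 42.8 and 32.3 to 12.8, 13.2 and 18.4 TPM (log2 fold change -0.87). ATM, a kinase of the DNA damage response, was lower with -0.84, and GNAS, a G protein subunit, rose from a mean TPM of 310.1 ± 6.82 to 406.5 ± 31.5 (SD, n = 3), with 0.54 as log2 fold change.

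**Figure D2:**
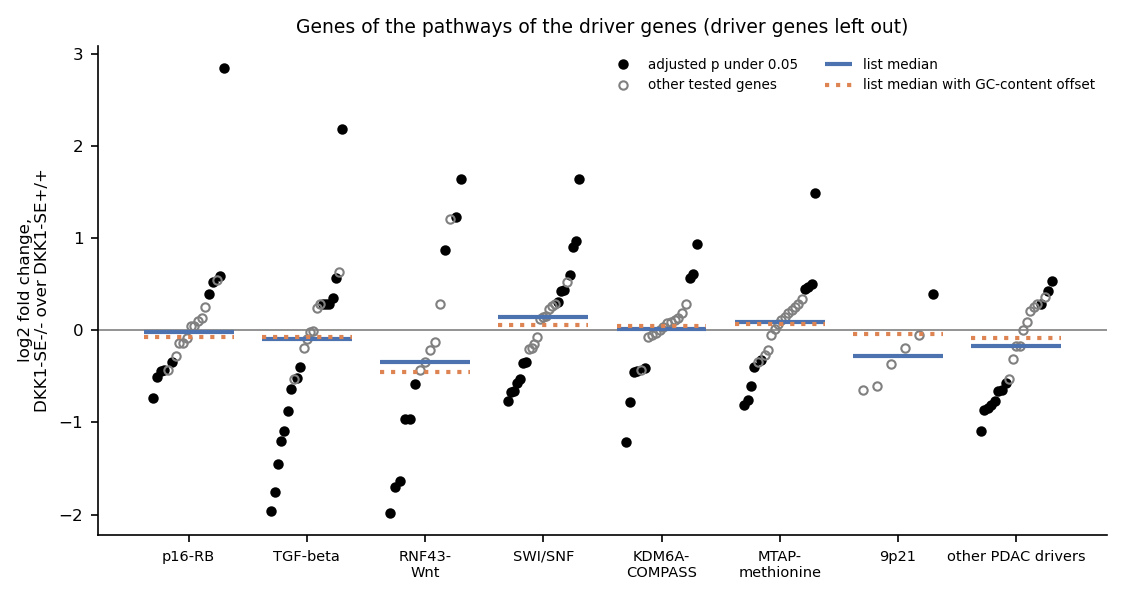
Log2 fold change of DKK1-SE-/- over DKK1-SE+/+ (vertical axis) for the tested genes of the 8 pathway lists, driver genes and SLIT2 left out. Filled points had an adjusted p under 0.05 and open points did not, blue lines are list medians and dotted orange lines are medians with the GC-content offset. Each list but the band 9p21 list holds called genes in both directions, and the list medians lie between -0.34 and 0.14.

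Over the 8 lists together, each gene counted once, 143 of 161 genes were tested and 71 were called, 30 higher and 41 lower in DKK1-SE-/-. Among the 30, the filter on low counts set the direction of CCND2 and SLIT2, and TGFBR3 and IL4I1 passed it through the DKK1-SE-/- libraries. The 71 called were 49.7% of those tested, against 39.3% of all tested genes. Whether the lists differ from other genes of like abundance was not tested. With the GC-content offset 70 were called, without DKK1-SE+/+ replicate 2 only 45, and without DKK1-SE-/- replicate 3 as many as 93. Over all tested genes, the same fits called 6220 of 15179, 4095 of 15786 and 7558 of 15618. Of the 48 called pathway genes that the naming rule gave, 34 were called whichever library was left out. The other 14 lost their call without at least 1 library, namely MIR31HG, RB1, MDM2, CCND1, E2F1, TGFB1, SMURF1, SMAD3, DPF3, ARID2, SMARCA4, DPY30, IL4I1 and ADI1. On the TPM scale the split over all tested genes shifted as well. Of the genes called on counts 50.5% were higher in DKK1-SE-/-, against 35.8% of those called by limma-trend on log2(TPM + 1), where the median log2 fold change of all tested genes was -0.08 in place of 0.03 (-0.11 with log2(TPM + 0.1)).

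In DKK1-SE+/+ libraries the levels of the driver genes ranked, by mean TPM, ARID1A (63.7 ± 3.94), TGFBR2 (39.1 ± 1.68), SMAD4 (18.4 ± 1.26), KDM6A (7.86 ± 1.17) and MTAP (3.4 ± 1.08), each apart from the next beyond its spread (SD, n = 3). RNF43 followed with 0.0167, and CDKN2A and CDKN2B were at 0. In DKK1-SE-/- libraries ARID1A (64.8 ± 7.96), TGFBR2 (36.7 ± 6.73) and SMAD4 (18.9 ± 1.86) kept their places. CDKN2A (8.30 ± 2.62) and KDM6A (8.20 ± 2.19) then lay within the spread of each other, and MTAP followed (1.98 ± 0.966, all SD, n = 3). The order of the 5 genes tested with counts in both genotypes was thus the same in each, and CDKN2A entered it at the level of KDM6A.

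The chromosomal surroundings of the driver genes were described by the median log2 fold change of the tested genes that start within 5 Mb, the driver gene itself left out. Around TGFBR2, 28 genes had a median of -0.52, and 15 of them were called lower and 1 higher, where 19.5% and 19.8% of all tested genes were. TGFBR2 itself had 0.03. Relative to the DKK1-SE+/+ mean, the median of these 28 genes was -0.56, -0.52 and -0.53 in the DKK1-SE-/- libraries and between -0.06 and 0.05 in the DKK1-SE+/+ libraries. The GC-content offset put the median around TGFBR2 at -0.32.

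Around the other driver genes the medians were closer to 0. They were -0.18 around CDKN2A (23 genes), -0.13 around CDKN2B (24 genes), -0.18 around MTAP (20 genes), -0.05 around SMAD4 (29 genes), 0.06 around ARID1A (120 genes), -0.08 around RNF43 (60 genes) and 0.12 around KDM6A (69 genes). The first 3 of these sets share most of their genes. Of the 23 neighbours of CDKN2A, 3 were called higher and 4 lower, where 19.8% and 19.5% of all tested genes were. These medians are descriptions and were not tested.

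**Figure D3:**
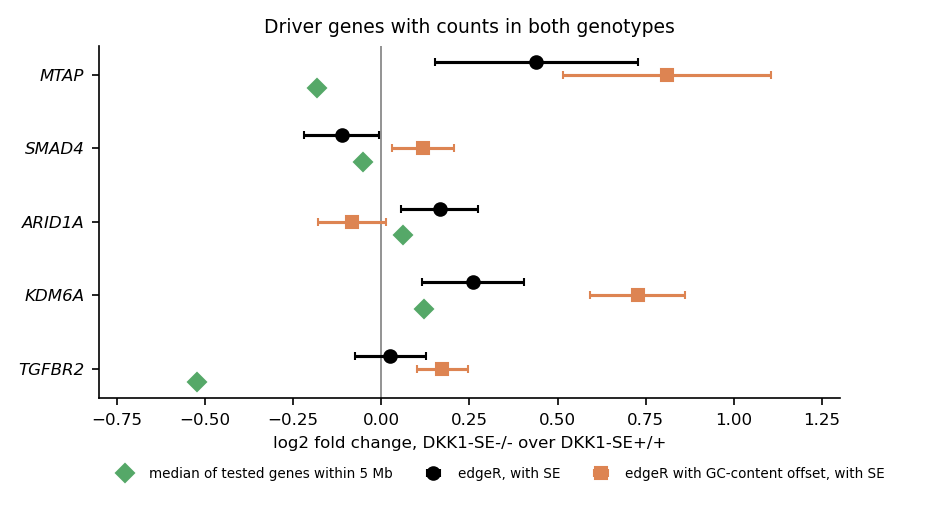
Log2 fold change of DKK1-SE-/- over DKK1-SE+/+ (horizontal axis) for the 5 driver genes with at least 10 counts in every library, from edgeR (black circles) and from edgeR with a GC-content offset (orange squares), each with its standard error, and the median of the tested genes within 5 Mb (green diamonds). The offset moves MTAP to 0.81 and KDM6A to 0.73, and TGFBR2 lies at 0.03 while its neighbours have a median of -0.52.

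Genes were ranked by how like CDKN2A their pattern over the 6 libraries was, with XIST and TSIX, sex-linked non-coding genes, left out by name. The genes most like CDKN2A among the rest were TNIP2, DNAJB5 and ARPC4. Pearson's r of log2(CPM + 1) was above 0.999 for each (n = 6 libraries, 13135 genes compared before that removal). This describes a split between 2 groups that share their libraries and depth. TNIP2 had a TPM of 37.3, 36.7 and 38.7 in DKK1-SE+/+ and 77.2, 80.9 and 67.6 in the DKK1-SE-/- libraries. As for CDKN2A, replicate 2 was the highest and replicate 3 the lowest of the DKK1-SE-/- libraries, while DNAJB5 (7.13, 6.96 and 7.01) and ARPC4 (175.5, 174.4 and 163.4) were highest in replicate 1.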

How the data were processed

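Messenger RNA of 6 PANC-1 libraries was prepared with a stranded mRNA kit. The authors deposited 1 table with an expected count per gene and library (32.3% of nonzero values were not whole, tolerance 1e-06). The TPM values in the same deposited table were scaled by the authors within each library. The sources used here name the build hg38 but not the aligner, the counting program or its use of strand. The table also holds the authors' own comparison columns (fold change, p-values), which were not used here. Genes were placed with GENCODE 44.

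Counts were fitted with edgeR 4.0.16 (TMM, filterByExpr with a minimum count of 10, quasi-likelihood F test, two-sided) in R 4.3.3, with Benjamini-Hochberg adjustment over all 15179 tested genes. The standard errors given with edgeR values were derived, as the absolute log2 fold change divided by the square root of the F statistic. Alternatives used DESeq2 1.42.0, limma 3.58.1 on TPM, other scalings and filters, a GC-content offset in 40 bins, the replicate number as a block, and each library left out. Summaries used Python 3.11.15, pandas 2.3.3, scipy 1.17.1 and matplotlib 3.10.9.

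All 8 driver genes were named. Of each pathway list, up to 3 called genes in each direction with the largest absolute log2 fold change were named, with a set of close partners of the driver genes whatever their result. FOCAD, CDKN2A-DT, ELAVL2, FZD5 and FZD8 were named after their values were seen. The driver genes and lists were chosen with earlier results of these data known.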

Additional observations from a re-analysis of the deposited data

How the results depend on the processing

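The number of driver genes called was 2 without the filter on low counts, where CDKN2B entered, like CDKN2A, through the DKK1-SE-/- libraries alone, 3 with the GC-content offset, and 2 with that offset and a replicate block. It was 1 with each library left out. Of all tested genes, 6545 of 31045 were called without the filter, 6220 of 15179 with the offset, and 5485 of 15179 with offset and block. With the replicate block alone, 4981 genes, 1 driver gene and 57 pathway genes were called. The libraries of like number did not pair (r of -0.12, -0.07 and -0.11). Pathway genes called numbered 46 with limma on log2(TPM + 1), 47 on log2(TPM + 0.1) and 40 with a mean TPM of at least 1, where 3590 genes were called in all. With 1 library left out they numbered 45 to 93, and all genes called 4095 to 7558.

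As log2 fold change, MTAP was -0.58 on log2(TPM + 1), with and without the TPM minimum, -0.80 on log2(TPM + 0.1) and 0.81 with the GC-content offset. With 1 library left out MTAP was 0.17 to 0.61. SMAD4 was 0.032, 0.033 and 0.032 in the 3 TPM fits and 0.12 with the GC-content offset, with or without the block. ARID1A was -0.083 with the offset and -0.088 with offset and block, and KDM6A 0.73 and 0.74. TGFBR2 was -0.043 with library size alone, -0.10, -0.11 and -0.10 in the TPM fits, and -0.057 to 0.062 with 1 library left out.

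DPF3 was -0.048 on log2(TPM + 1) and -0.055 on log2(TPM + 0.1). KLHL9 was 0.31 with the offset, 0.32 with offset and block, and -0.14 to 0.051 with 1 library left out. The log2 fold change of CDK4 was -0.029 with library size alone, -0.074, -0.075 and -0.074 in the 3 TPM fits, -0.14 with the offset, -0.15 with offset and block, and -0.065 to 0.15 with 1 library left out. SMAD2 was 0.090, 0.092 and 0.090 in the 3 TPM fits, 0.28 with the offset, with or without the block, and -0.12 to 0.053 with 1 library left out. EZH2 was 0.22 with the offset and 0.21 with offset and block.

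The median around CDKN2A was -0.029 with the offset. Around SMAD4 it was 0.24 within 2 Mb and 0.14 with the offset, around ARID1A 0.15 and -0.023, and around RNF43 -0.19 within 10 Mb and 0.028 with the offset. Around TGFBR2 it was -0.75 within 2 Mb, -0.50 within 10 Mb and -0.32 with the offset. The cause was not tested for any of these.

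Of the 48 called pathway genes that the naming rule gave, 22 were called in every fit, 39 with the GC-content offset, 43 with the replicate block, 48 by DESeq2 and 30 by limma on log2(TPM + 1). The filter on low counts left CDKN2B and RNF43 untested, and 1 clone cannot tell the deletion apart from other differences between clones.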

Other observations

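CDKN2A was 1 of 4 genes on the numbered chromosomes with at most 1 count in each DKK1-SE+/+ library and at least 50 counts in each DKK1-SE-/- library, among 59554 genes. These limits were chosen after the values were seen, and so were the genes they name. The others were SLIT2, UCHL1, a deubiquitinase of neurons with 100, 97 and 69 counts in the DKK1-SE-/- libraries and 0 in the others, and FBN2, a microfibril protein with 58, 78 and 62 counts against 0, 1 and 0. The mean CPM of UCHL1 was at least 30.2-fold higher, against the mean limit that 3 counts set in the DKK1-SE+/+ libraries. In the other direction there were 2 genes, GREM1, a secreted BMP antagonist with 90, 55.1 and 88 counts in DKK1-SE+/+ and 1, 0 and 0 in DKK1-SE-/- libraries, and the unnamed gene ENSG00000260721 with 80, 52 and 53 counts against 0. With at least 20 counts in place of 50 there were 19 and 4 genes, and with at least 100 there were 1 and 0.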
